A study of Mus musculus with 30 samples.

Results

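The genes described here are the transcription factors Atf4, Atf5 and Ddit3, the Tribbles pseudokinases Trib1 and Trib3, and the stress-response genes Asns, Psat1, Chac1 and Sesn2. They were taken by symbol, 9 of the 29117 genes in the deposited table, and where a symbol had more than 1 row the row with the highest mean was kept, which concerned Ddit3. Of the 9, 8 reached 1 FPKM in at least 3 of the 30 libraries and were tested along with 13589 genes in all. Psat1 did not reach that level and is given by its values. FPKM scales the sequenced fragments of a gene by transcript length and by the mapped fragments of the library.

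The study followed mouse liver over 4 h after an intraperitoneal injection of human insulin (0.7 U/kg) or of PBS, the saline buffer used as the control. All mice were C57BL/6J, aged 10 weeks, had fasted for 12 to 16 h and carried no transgene or deletion named in the labels. RNA came from the left lobe, and each of the 10 combinations of treatment and sampling point had 3 libraries, 15 per treatment. The points are numbered 1 to 5 without minutes, so they are named by number and no order in time is assumed. The series design calls the triplicates biological; the labels do not tie libraries to individual animals, so p-values measure the spread between libraries.

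ATF4 is the central transcription factor of the integrated stress response. Kinases that sense amino acid shortage, stress of the endoplasmic reticulum (ER), viral RNA or lack of haem phosphorylate the translation factor eIF2alpha, which lowers general protein synthesis while translation of the Atf4 mRNA increases. Because this control acts on translation, the level of Atf4 mRNA is not a measure of ATF4 protein. ATF4 pairs with C/EBP proteins on a composite DNA element, the C/EBP-ATF response element or CARE, and drives genes of amino acid supply, redox balance and, through CHOP (the product of Ddit3), cell death. The Tribbles proteins resemble kinases but act mainly as scaffolds. TRIB1 brings C/EBPalpha to the ubiquitin ligase COP1 and is known in liver for its effect on plasma lipids, whereas TRIB3, itself an ATF4 and CHOP target, binds AKT, the kinase downstream of the insulin receptor.

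Promoter sequences were searched for the CARE, since it is the element through which ATF4 acts on its targets. RefSeq promoter windows on GRCm38.p6, 250 bases before to 50 after a start site, were at hand for 8 of the 9 genes, in 10 windows. The CARE was written TGATGNAA and searched on both strands. It occurred in the windows of Chac1, Asns and Trib3 and in 3.97% of all 32851 windows of this length. Neither the cAMP response element TGACGTCA (1.79% of windows) nor the ER stress response element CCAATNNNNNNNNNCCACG (0.119% of windows) occurred in any member's window. A match describes letters, not a bound site. The stretches around the matches are given 5′ to 3′ on the strand of the gene, with the match in capitals. In Chac1 it lies at -193 to -186 from the start site, whose first transcribed base is 1, and reads TGATGCAA on the opposite strand (chr2:119351003-119351102, plus strand). In Asns it lies at -23 to -16 (chr6:7693214-7693243, minus strand). In Trib3 it lies at bases 15 to 22 of the part transcribed by RefSeq and reads TGATGTAA on the opposite strand (chr2:152344028-152344057, minus strand). All these positions count from RefSeq start sites. The GENCODE M21 annotation starts Asns at 7693254, upstream of its match, and Trib3 at 152344032, downstream of its match.
Chac1: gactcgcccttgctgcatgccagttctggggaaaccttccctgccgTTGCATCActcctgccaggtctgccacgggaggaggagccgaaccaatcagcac
Asns: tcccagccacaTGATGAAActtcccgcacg
Trib3: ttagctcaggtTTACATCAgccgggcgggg

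All 5 hepatocyte markers were present, with summed levels of 33746 to 46448 FPKM in insulin and 36538 to 48015 in PBS, and depth was estimated at 20.2 to 41.0 M reads per library. The 5 libraries of insulin replicate 1 carried 64759 to 69874 FPKM of CT010467.1, a locus that collects ribosomal RNA, against 3279 to 7880 in the other 25 libraries. Calls that were lost without these 5 libraries are named below. Lanes held libraries of 1 treatment only, and lane and treatment cannot be told apart. The median difference of all genes tested, insulin minus PBS, was -0.06, -0.12, -0.14, -0.14 and -0.17 on the log2(FPKM + 1) scale at points 1 to 5. Median-ratio scaling brought these medians to between -0.014 and 0.0032. It turned the higher and lower calls among all genes from 84 and 100 into 149 and 57 (point 2), from 298 and 986 into 693 and 485 (point 3), from 383 and 1416 into 943 and 801 (point 4) and from 402 and 2194 into 1196 and 1085 (point 5). Of the markers of other liver and blood cells, none was called at points 1 to 3. At point 4, 2 of 6 Kupffer cell, 1 of 6 endothelial, 1 of 5 stellate and 1 of 3 cholangiocyte markers were lower in insulin, and at point 5, 3 of 6 endothelial and 1 of 3 erythroid markers. Of all genes tested, 10.4% were called lower at point 4 and 16.1% at point 5. Summed Kupffer markers spanned 48.3 to 104 FPKM in insulin and 63.2 to 185 in PBS, and endothelial markers 36.2 to 53.8 and 47.1 to 71.7. Genes of T and B cells summed to at most 1.61 and 2.26 FPKM, and no marker with a row was at 0 in every library. The part of these cells in the results at points 4 and 5 was not tested.

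Levels per transcript length differed widely between the genes. Over all 30 libraries Atf5 averaged 148 ± 55.9 FPKM (SD), Atf4 29.0 ± 6.72 and Trib1 11.1 ± 4.25. Every Atf5 value lay above every Atf4 value, while the ranges of Atf4 and Trib1 overlapped (21.7 to 48.4 and 5.83 to 28.0 FPKM). Ddit3 (4.11 ± 1.29), Trib3 (3.76 ± 1.57), Sesn2 (3.11 ± 0.947) and Asns (2.61 ± 1.60) followed, and each differed from the next in this order by less than its own SD. Chac1 was listed in 27 of 30 libraries, at up to 2.16 FPKM, and Psat1 in 19 of 30, at up to 0.401 FPKM.

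**Figure D1:**
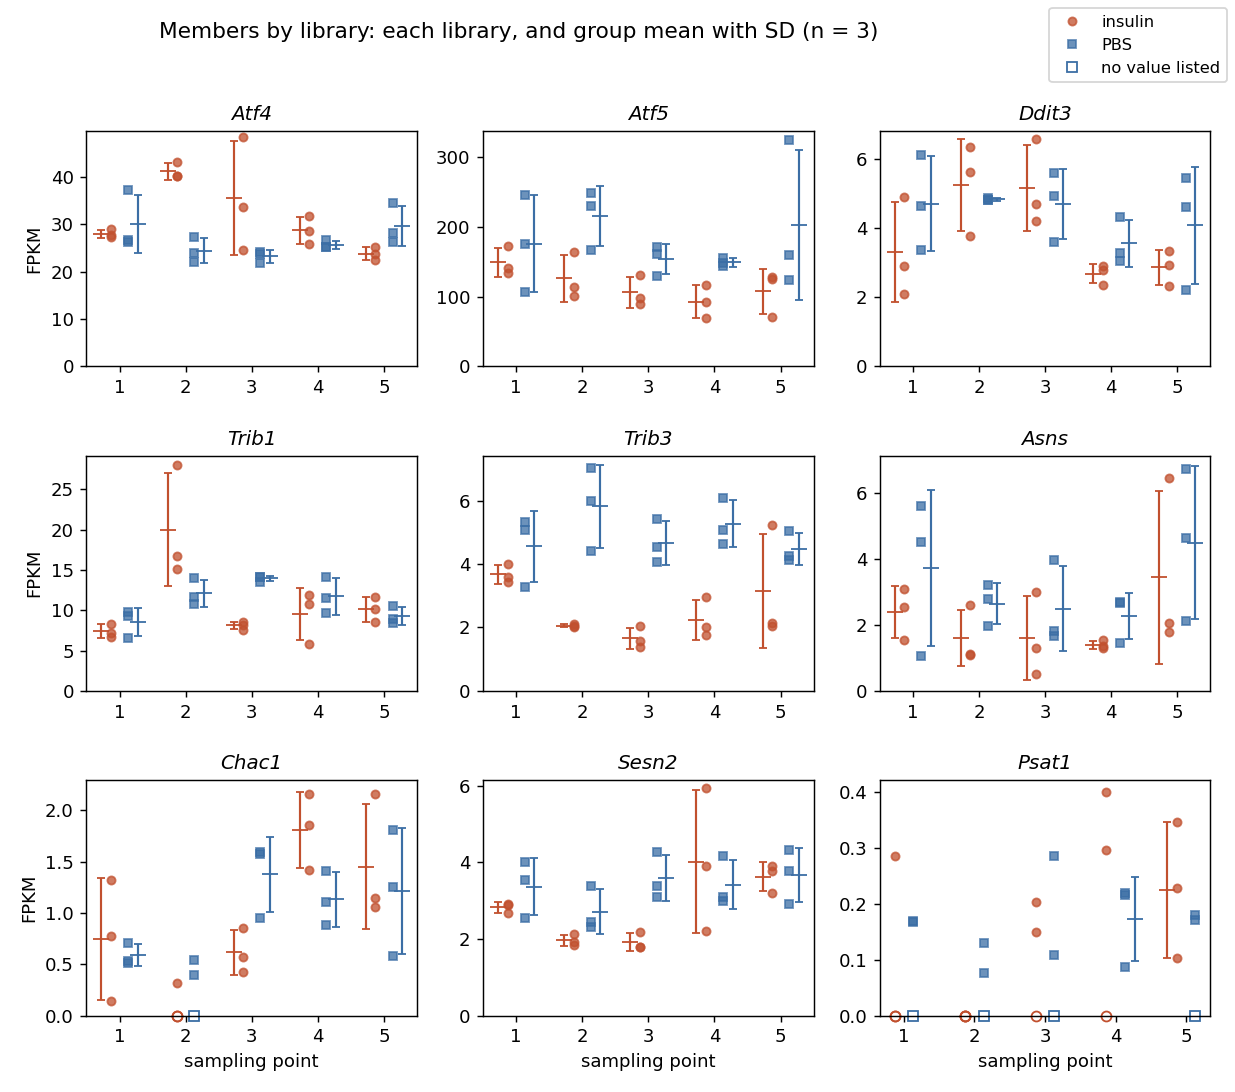
FPKM of the 9 genes (vertical axes, each from 0) by sampling point (horizontal axes) in insulin (orange circles) and PBS (blue squares); filled symbols are single libraries, open symbols at 0 are libraries with no value listed, and the bars are the mean and SD of 3 libraries, drawn only where all 3 had a value. At points 2, 3 and 4 Trib3 lies lower in all insulin than in all PBS libraries of the point, and Atf4 lies higher at points 2 and 3.

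The design asks which transcripts insulin changed relative to the buffer at each point. A gene is said to have risen or fallen where limma's test across all genes gave an adjusted p below 0.05. Trib3 fell at points 2, 3 and 4, Atf4 rose at points 2 and 3, and Trib1 and Sesn2 fell at point 3, while Atf5, Ddit3, Asns and Chac1 passed the test at no point. In bulk tissue, less RNA per cell and fewer cells of a type cannot be told apart.

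By point, 0 of the 8 genes tested were called at point 1, where 0.00736% of all genes were. At point 2, 2 of 8 were called (1.35% of all genes), at point 3, 4 of 8 (9.45%), at point 4, 1 of 8 (13.2%), and at point 5, 0 of 8 (19.1%). The share of called genes thus increased with the point number over the whole table, while among these 8 it was highest at point 3 and at 0 at point 5. The members were chosen with earlier results of these data known, so their shares beside those of all genes are a description and carry no test. At unadjusted p below 0.05 there were 0, 4, 5, 2 and 2 of the 8, against 7.93%, 17.8%, 27.7%, 30.3% and 34.3% of all genes. The 3 insulin libraries lay wholly above or below the 3 PBS libraries for 0, 5, 5, 4 and 1 of the 8 at points 1 to 5, against 9.43%, 23.5%, 35.5%, 32.4% and 35.4% of all genes. The median difference of the 8 was -0.17, -0.28, -0.55, -0.31 and -0.32. With either median-ratio scaling or quantile normalization the count at point 3 was 2 instead of 4, Atf4 and Trib3, and the counts at the other points were as given.

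**Figure D2:**
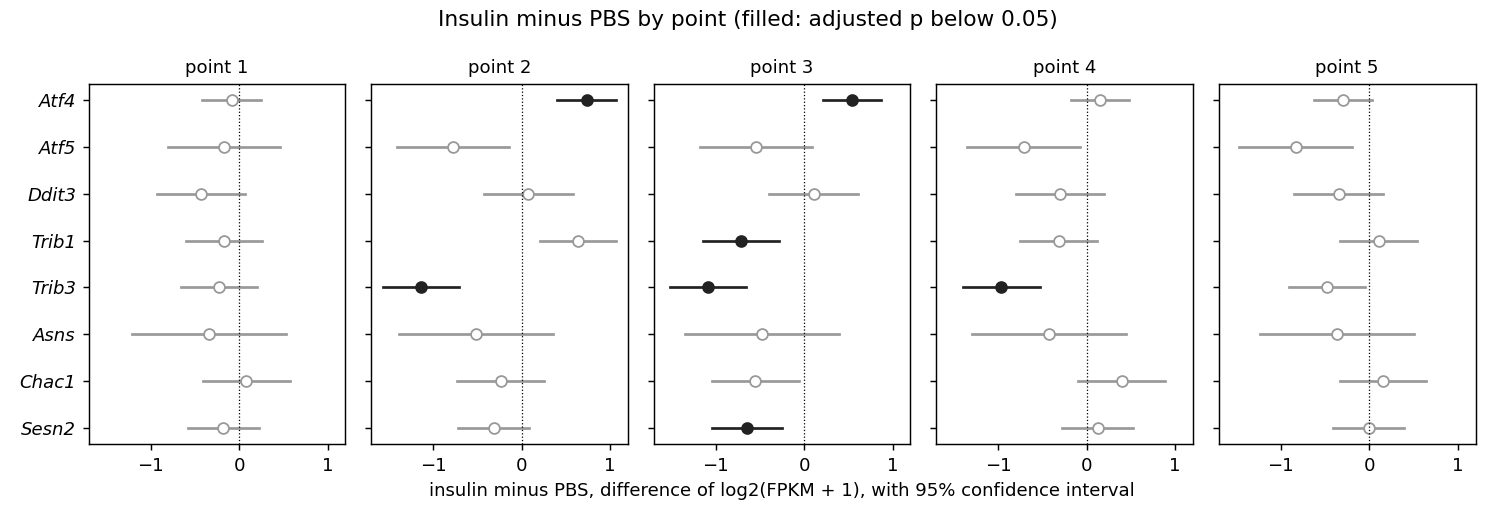
Difference of log2(FPKM + 1), insulin minus PBS (horizontal axes), for the 8 genes tested (rows) at the 5 points (panels), with 95% confidence intervals from limma; filled black symbols passed an adjusted p of 0.05. Trib3 lies near -1 at points 2, 3 and 4 with intervals wholly below 0, and the intervals of Asns span 0 at every point.

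Atf4 (ENSMUSG00000042406, chromosome 15, 80255184 to 80257541, GRCm38) differed little at point 1, with insulin libraries at 27.7, 27.3 and 28.9 FPKM against 26.7, 26.4 and 37.2 in PBS. At point 2 the insulin libraries stood at 43.3, 40.2 and 40.2 FPKM and the PBS libraries at 24.0, 27.3 and 22.0. All 3 insulin libraries were higher than any of the 15 PBS libraries, and Atf4 rose by 0.74 ± 0.16 on the log2 scale (SE, limma, n = 3 per group, adjusted p = 0.0161), from group means of 24.4 ± 2.67 to 41.2 ± 1.78 FPKM (SD). At point 3 insulin replicates 1, 2 and 3 stood at 24.6, 48.4 and 33.6 FPKM against 21.7, 24.2 and 23.7 in PBS. The groups did not overlap, but replicate 1 was within 1 FPKM of the highest PBS library and replicate 2 was the highest of the 30 libraries, and Atf4 rose by 0.54 ± 0.16 (adjusted p = 0.0353). The groups overlapped at point 4, with a difference of 0.15 ± 0.16 (adjusted p = 0.564). At point 5 the order was the opposite, with 23.8, 22.4 and 25.3 FPKM in insulin below 26.2, 34.5 and 28.3 in PBS, a difference of -0.30 ± 0.16 that did not pass the test (adjusted p = 0.192). That difference was smaller under median-ratio scaling (-0.085, adjusted p = 0.739) and quantile normalization (-0.14, 0.549). Whether the insulin difference depended on the point was tested directly, and Atf4 was the only one of the 8 genes called (limma F test, adjusted p = 0.0415), where 1.77% of all genes were.

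The difference of Atf4 at point 2 was 0.67 to 0.82 when any 1 library or series was left out, while its adjusted p crossed the threshold. The call was lost without insulin replicate 1 (adjusted p = 0.0729) or 2 (0.0625) or PBS replicate 3 (0.116) and in a fit of the 6 libraries alone (0.0516), and that at point 3 was lost when any library but insulin replicate 1 was left out (0.0685 to 0.22), without the filter on low values (0.071) and in the fit of 6 libraries (0.159). With a replicate left out at every point, the call at point 2 was lost for insulin replicate 3 (0.0785) and PBS replicates 2 (0.0516) and 3 (0.145). That at point 3 was then lost for all but insulin replicate 1 (0.0817 to 0.256). Without insulin replicate 2 the difference at point 3 was 0.30. With median-ratio scaling both were firmer, at 0.89 ± 0.15 (adjusted p = 0.00118) and 0.71 ± 0.15 (0.00437). The dependence on the point was lost without any 1 of the 5 series other than insulin replicate 1, a series being the 5 libraries of a treatment and replicate number (adjusted p = 0.11 to 0.245), and without the filter on low values (0.0969).

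Atf5 (ENSMUSG00000038539, chromosome 7, 44812256 to 44816658), which encodes the closest relative of ATF4 and is strongly expressed in liver, averaged 116 ± 30.7 FPKM in the 15 insulin libraries and 180 ± 58.3 in the 15 PBS libraries. Its difference was negative at all 5 points, at -0.17, -0.78, -0.54, -0.71 and -0.83 with an SE of 0.31, and passed the test at none (adjusted p = 0.92, 0.198, 0.257, 0.12 and 0.0592). Under median-ratio scaling the differences were nearer 0, at -0.09, -0.62, -0.37, -0.55 and -0.61, and none passed (adjusted p = 0.107 to 0.946). Quantile normalization gave -0.63 at point 5 (adjusted p = 0.119). At point 2 the insulin libraries were at 113, 101 and 165 FPKM and the PBS libraries at 168, 231 and 249. At point 4 they were at 68.7, 92.8 and 116 against 155, 144 and 148. In both the groups did not overlap. At point 5 the insulin libraries were at 70.6, 128 and 125 FPKM, while PBS replicate 2 alone reached 325, the highest of the series, beside 124 and 160. The difference at point 5 passed without insulin replicate 2 (-0.98, 0.0497) or PBS replicate 1 (-1.12, 0.0231), with the filter at a mean of 5 FPKM (0.0465) and with a replicate block (0.0277), and it was -0.55 without insulin replicate 1 (0.289) and -0.43 without PBS replicate 2 (0.338). The spread within groups was wide: its residual SD of 0.41 on the log2 scale exceeded that of 94.6% of 298 genes of similar level. Exons of Atf5 overlap those of Nup62 and Il4i1 on the opposite strand, and how the authors' quantification treated strand is not given in the sources used here.

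Ddit3 (ENSMUSG00000025408, chromosome 10, 127290774 to 127296288) encodes CHOP. Insulin libraries held 3.77, 6.32 and 5.62 FPKM at point 2 and PBS libraries 4.86, 4.79 and 4.82, with 4.21, 6.56 and 4.69 against 3.60, 5.58 and 4.91 at point 3. The groups overlapped at both points, with differences of 0.08 ± 0.24 (adjusted p = 0.903) and 0.11 ± 0.24 (0.809). At the points where Atf4 rose, the 95% confidence interval of the Ddit3 difference was -0.42 to 0.58 and -0.39 to 0.61. Insulin libraries at point 4 (2.78, 2.89 and 2.36 FPKM) lay just below those of PBS (3.27, 4.32 and 3.05), a difference of -0.30 ± 0.24 (adjusted p = 0.425). A second row with the symbol Ddit3 overlaps this gene on the same strand and averaged 0.0755 FPKM, and exons of Mars overlap it on the opposite strand, so its values are uncertain to that extent.

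Trib1 (ENSMUSG00000032501, chromosome 15, 59648350 to 59657099) passed the test at point 3 only, where it was lower in insulin. At point 2 its levels were 16.7, 28.0 and 15.2 FPKM in insulin, with 10.7, 13.9 and 11.6 in PBS. The insulin libraries were the 3 highest of all 30, yet the difference of 0.64 ± 0.21 did not pass the test (adjusted p = 0.123). At point 3 all 3 insulin libraries lay lower, at 7.61, 8.20 and 8.54 FPKM against 14.2, 14.1 and 13.5, and Trib1 fell by 0.71 ± 0.21 (adjusted p = 0.0342). Both groups at point 3 were tight, with SDs of 0.474 and 0.349 FPKM. The Trib1 call was lost when any 1 of the 6 libraries was left out (adjusted p = 0.0621 to 0.1), without the filter on low values (0.077), under median-ratio scaling (-0.55, 0.0977) and quantile normalization (-0.59, 0.0753), and without insulin replicate 1 at every point (0.11). The test of whether the insulin difference depended on the point gave an adjusted p of 0.0838.

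Within the insulin libraries the change of Trib1 was larger than its error. From point 1, at 7.18, 8.35 and 6.72 FPKM, to point 2 it rose by 1.27 ± 0.21 (limma, adjusted p = 0.000381), and from point 2 to point 3 it fell by 1.15 ± 0.21 (0.00432). Between these points 3.22% and 0.817% of all genes were called, and Trib1 was the only one of the 8. From point 1 to 2, however, 2 of the 8 were called under median-ratio scaling, quantile normalization, a replicate block or the series as a random effect. Below an unadjusted p of 0.05 were 5 and 2 of the 8 (14% and 7.45% of all genes). The Atf4 difference from point 1 to 2 in insulin was 0.54 ± 0.16 and did not pass (adjusted p = 0.0663). From point 3 to 4 and from 4 to 5 in insulin 0 of the 8 were called (0.272% and 0.618% of all genes), and 0 of the 8 in each of the 4 corresponding PBS comparisons (0.552%, 0.11%, 0.0147% and 0%). At unadjusted p below 0.05 there were 3 and 0 of the 8 in insulin (6.39% and 12.7% of all genes) and 1, 1, 0 and 0 in PBS (9.03%, 6.98%, 4.39% and 5.68%). Without insulin replicate 2 of point 4, 1 of the 8 was called from point 3 to 4. The rise of Trib1 kept its call when any 1 library or series was left out, and the fall when any 1 library was, but not without insulin replicate 1 at every point (adjusted p = 0.0828). In PBS the corresponding Trib1 differences were 0.46 and 0.20 (± 0.21), and neither passed (adjusted p = 0.497 and 0.925).

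Trib3 (ENSMUSG00000032715, chromosome 2, 152337422 to 152344032) kept its calls under more alternatives than any other member. At point 1 the libraries overlapped, at 3.43, 3.59 and 4.01 FPKM for insulin, and 3.28, 5.31 and 5.08 for PBS (-0.23 ± 0.21, adjusted p = 0.801). At point 2 it stood at 2.06, 2.12 and 2.01 against 4.42, 7.03 and 5.99, a ratio of 0.355, and fell by 1.14 ± 0.21 (adjusted p = 0.00336). The insulin libraries agreed to within an SD of 0.0564 FPKM. At point 3 it stood at 2.03, 1.57 and 1.38 against 4.05, 4.53 and 5.42 and fell by 1.09 ± 0.21 (adjusted p = 0.00248). At point 4 it stood at 1.75, 2.01 and 2.95 against 4.64, 5.07 and 6.08 and fell by 0.96 ± 0.21 (adjusted p = 0.00521). All 9 insulin libraries of points 2, 3 and 4 (1.38 to 2.95 FPKM) were lower than the lowest of the 15 PBS libraries (3.28 FPKM).

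At point 5 insulin replicates 1 and 3 were low for Trib3, at 2.06 and 2.15 FPKM, but replicate 2 reached 5.22, above all 3 PBS libraries (4.12, 5.04 and 4.25). The difference of -0.48 ± 0.21 did not pass (adjusted p = 0.107), and without insulin replicate 2 it was -0.81 and passed (0.00468). The calls at points 2, 3 and 4 held when any 1 library of the point was left out (adjusted p up to 0.0411, 0.0184 and 0.0343), under both scalings and without insulin replicate 1 at every point. At point 2 it was lost without PBS replicate 2 (0.0863) or 3 (0.0561) at every point, and that at point 4 without PBS replicate 3 at every point (0.056) or in a fit of the 6 libraries alone (0.0637). The test of whether the Trib3 difference depended on the point did not pass (adjusted p = 0.27), so the points are not shown to differ.

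Trib3 is a known ATF4 target, so both transcripts were set side by side in each library. Trib3 amounted to 3.25 to 23.3 FPKM per 100 FPKM of Atf4 in insulin, with a median of 8.26, and to 12.3 to 27.2 in PBS, with a median of 18.6. At point 2 this ratio was 5.01 ± 0.265 (SD, n = 3) in insulin and 23.8 ± 4.67 in PBS, at point 3 it was 5.21 ± 2.67 and 20.1 ± 2.39, and at point 4 it was 7.82 ± 2.20 and 20.4 ± 2.19. The groups did not overlap at these 3 points. At points 1 and 5 they did, at 13.1 ± 0.744 against 15.4 ± 4.21 and 13.5 ± 8.52 against 15.1 ± 0.539. The ratio was formed with the values of both genes known and carries no test.

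**Figure D3:**
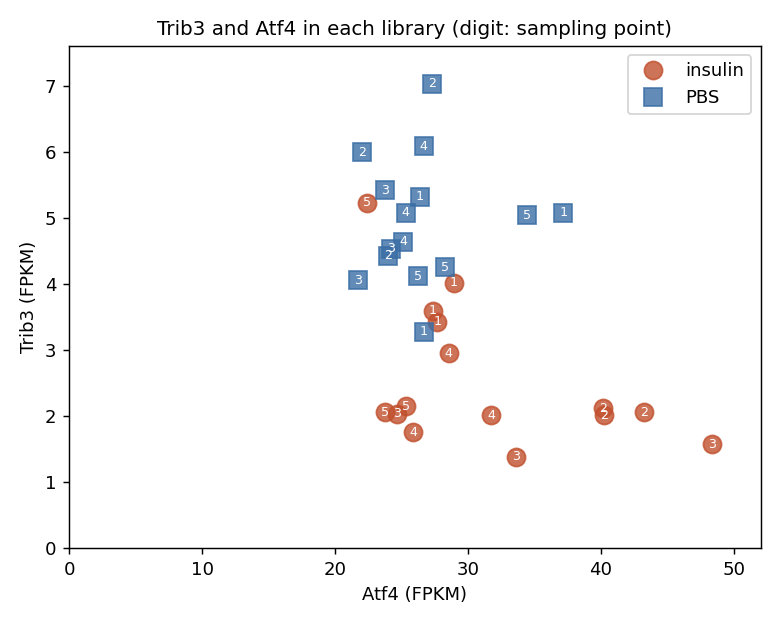
Trib3 against Atf4, both in FPKM, in each of the 30 libraries (orange circles insulin, blue squares PBS; the digit is the sampling point). The 6 insulin libraries of points 2 and 3 hold 1.38 to 2.12 FPKM of Trib3, less than any PBS library, and 4 of them hold more Atf4 than any PBS library (37.2 FPKM).

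Asns (ENSMUSG00000029752, chromosome 6, 7675169 to 7693254) encodes asparagine synthetase and is a standard readout of ATF4, with a match to the CARE in its promoter window. Its mean was lower in insulin at every point, with differences of -0.34, -0.52, -0.47, -0.42 and -0.36, but the SE was 0.42 and no point passed the test (adjusted p = 0.493 to 0.862). Values ranged from 0.521 FPKM in insulin replicate 1 at point 3 to 6.74 in PBS replicate 2 at point 5. Libraries of the same group differed widely, as at point 5, where insulin stood at 1.80, 2.06 and 6.47 FPKM and PBS at 4.63, 6.74 and 2.11. The residual SD of Asns, 0.56, exceeded that of 96.0% of 2482 genes of similar level. At point 3 the 95% confidence interval of the Asns difference ran from -1.34 to 0.40. This interval holds no difference as well as the difference measured for Trib3 at that point, -1.09, so it does not tell them apart.

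Psat1 (ENSMUSG00000024640, chromosome 19, 15904678 to 15947337), an enzyme of serine synthesis, was near the lower limit of the data. At point 2 none of the 3 insulin libraries had a value, and PBS had 0.129 and 0.0755 FPKM and no value in replicate 3. At point 4 insulin replicates 2 and 3 stood at 0.401, the highest of all libraries, and 0.296 FPKM, and replicate 1 had no value. PBS libraries at point 4 stood at 0.218, 0.215 and 0.0865. Fitted without the filter on low values, its differences lay between -0.09 and 0.13 (± 0.12) and none passed (adjusted p = 0.652 to 1).

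Chac1 (ENSMUSG00000027313, chromosome 2, 119351229 to 119354381), which degrades glutathione, was also low. For its transcript of 1637 bases 1 read corresponds to about 0.0149 to 0.0302 FPKM at the estimated depths. At point 2 insulin replicates 1 and 3 and PBS replicate 1 had no value, and the others stood at 0.316, 0.395 and 0.540 FPKM. At point 3 it stood at 0.427, 0.855 and 0.571 in insulin against 1.58, 1.59 and 0.955 in PBS, all lower, with a difference of -0.55 ± 0.24 (adjusted p = 0.132). At point 4 it stood at 2.16, 1.42 and 1.86 against 1.41, 0.883 and 1.11, all higher, with a difference of 0.40 ± 0.24 (adjusted p = 0.263). Insulin replicate 2 (1.416 FPKM) and PBS replicate 1 (1.412) of point 4 were less than the value of 1 read apart. The differences at points 3 and 4 did not pass the test, and the test of whether the difference depended on the point gave an adjusted p of 0.505.

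Sesn2 (ENSMUSG00000028893, chromosome 4, 132492032 to 132510501) encodes a leucine sensor that restrains mTORC1 through the GATOR complexes. At point 2 insulin libraries (1.91, 1.85 and 2.13 FPKM) lay below PBS libraries (2.31, 3.39 and 2.43), with a difference of -0.31 ± 0.19 (adjusted p = 0.398). At point 3 they were at 1.78, 2.19 and 1.78 against 3.38, 3.10 and 4.25, and Sesn2 fell by 0.65 ± 0.19 (adjusted p = 0.0373). The groups overlapped at the other points, and at point 4 the insulin libraries were spread from 2.20 to 5.92 FPKM. The Sesn2 call was lost when any 1 of the 6 libraries was left out (adjusted p = 0.0575 to 0.149), without the filter on low values (0.0789), under median-ratio scaling (-0.52, 0.0735) and quantile normalization (-0.50, 0.087), and without insulin replicate 1 at every point (0.132).

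Among the 5 insulin points, 5 of the 8 genes varied (limma F test, 13.3% of all genes): Trib1 (adjusted p = 0.000703), Chac1 (0.00157), Atf4 (0.0118), Sesn2 (0.0168) and Trib3 (0.0471). Group means of Chac1 in insulin ranged up to 1.81 FPKM at point 4 from values of 0.316 or none at point 2, and those of Sesn2 from 1.92 at point 3 to 4.01 at point 4. Ddit3 was just outside (0.0542) and was called under both scalings (0.0405 and 0.0478), with the replicate block (0.0345) and with the series as a random effect (0.0338). Among the 5 PBS points, 0 of the 8 varied (3.27% of all genes), the lowest adjusted p being 0.111 for Chac1, and 2 of the 8, Trib1 and Chac1, were below an unadjusted p of 0.05 (0.0273 and 0.00599), where 14.3% of all genes were. Without a whole insulin series the count in insulin was 1 to 3. Trib1 was called without each of the 3 series (adjusted p up to 0.0124), whereas Trib3 was not called without any 1 of them (0.0852 to 0.185) or without the filter (0.107). Atf4 was not called without insulin replicate 2 (0.0508) or 3 (0.12), Chac1 not without 3 (0.0542), and Sesn2 not without 1 (0.179) or 3 (0.202).

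Genes around ATF4 were followed as lists, read against the share of all genes that rose and fell: 0.618%, 2.19%, 2.82% and 2.96% rose from point 2 through point 5, and 0.736%, 7.26%, 10.4% and 16.1% fell. No list gene was called at point 1. List calls are given for the values as deposited, and scaling added further calls in some lists. Of 36 calls of list genes, 17 held in a fit of the 6 libraries of the point alone, 27 without the filter on low values, 31 and 32 under median-ratio scaling and quantile normalization, and 18 to 27 when 1 series was left out (18 without PBS replicate 3 and 20 without insulin replicate 2 at every point). Without insulin replicate 1 at every point 24 held. The 12 lost were those of Ppp1r15a at point 2, of Cebpa, Shmt2, Got1, Xbp1, Sdf2l1 and Oplah at point 4, and of Nfe2l2, Vars, Ddit4, Eif4ebp1 and Oplah at point 5. Of 7 genes for eIF2alpha, its kinases and the subunits of its phosphatase, 1 rose at point 2, 1 at point 3 and 1 at point 4, and none fell. The list medians were 0.04, -0.07 and -0.11 (medians of all genes -0.12, -0.14 and -0.14). Ppp1r15a, the stress-induced phosphatase subunit that restores translation, rose from 4.55 ± 0.781 to 8.81 ± 0.782 FPKM at point 2 (0.83 ± 0.20, adjusted p = 0.0313). That call was lost when any 1 library was left out (0.0519 to 0.154). Eif2ak3, the ER stress kinase PERK, rose by 0.59 ± 0.15 at point 3 (adjusted p = 0.0176) and by 0.47 ± 0.15 at point 4 (0.0404). Each of its calls was lost without any 1 of 4 libraries: insulin replicates 2 and 3 and PBS replicates 1 and 3 at point 3 (0.0628 to 0.0696), and insulin replicate 2 and all PBS replicates at point 4 (0.057 to 0.267). Without insulin replicate 2 the difference at point 4 was 0.26.

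Of 6 bZIP partners of ATF4 and CHOP, 1 rose at point 2, 1 rose and 1 fell at point 3, 1 fell at point 4 and 2 fell at point 5. The list medians were -0.05, -0.11, 0.02 and -0.02. Atf3, an immediate early stress factor, rose at point 2 from 0.590 ± 0.289 to 14.1 ± 8.99 FPKM (3.11 ± 0.38, adjusted p = 2.68e-05) and at point 3 by 1.98 ± 0.38 (0.00236). Both calls held when any 1 library was left out, though without insulin replicate 2 the difference at point 3 was 1.31, and that at point 3 was lost in the fit of 6 libraries (0.0662). Cebpa, the C/EBP factor that TRIB1 directs to degradation, fell at points 3, 4 and 5 by 0.91, 0.70 and 0.78 (± 0.19, adjusted p = 0.00439, 0.0173 and 0.00658). At point 3 the Cebpa call held without any 1 library but not without insulin replicate 2 at every point (0.0592). That at point 4 was lost without insulin replicate 1 (0.1) or 2 (0.0544) or PBS replicate 3 (0.0628), and that at point 5 without PBS replicate 3 (0.051). Nfe2l2, the antioxidant factor NRF2, fell at point 5 by 0.46 ± 0.15 (adjusted p = 0.0346), but not under median-ratio scaling (0.18) or quantile normalization (0.103), nor without insulin replicate 1 or 3 or PBS replicate 2 or 3 (0.0627 to 0.151). In the list of Tribbles relatives and partners, which shares Cebpa, 7 of 8 genes were tested and Cebpa was the only gene called.

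Of 10 genes of serine, one-carbon and amino acid synthesis 6 were tested, and at each of points 3, 4 and 5 Got1 rose and Shmt2 fell, with list medians of 0.15, 0.05 and 0.03. Got1, the cytosolic aspartate aminotransferase that makes the precursor of asparagine, rose by 1.42, 0.98 and 1.27 (± 0.25, adjusted p = 0.00129, 0.0157 and 0.00192). Shmt2, the mitochondrial enzyme that turns serine into glycine, fell by 0.67, 0.67 and 0.77 (± 0.16, adjusted p = 0.00978, 0.00803 and 0.00194). At point 4 the call of Got1 was lost without insulin replicate 1 (0.0505) or 2 (0.0594) or PBS replicate 1 (0.0648), and that of Shmt2 without insulin replicate 1 (0.0583). The other calls of both held without any 1 library.

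Of 9 amino acid transporters 4 were tested. Slc38a2, the adaptively regulated neutral amino acid transporter SNAT2 and an ATF4 target, rose at points 2, 3 and 4 by 1.41, 1.60 and 1.09 (± 0.25, adjusted p = 0.00194, 0.000253 and 0.00664). Its mean at point 2 was 117 ± 22.9 FPKM with insulin, against 43.0 ± 3.88 without. Its calls held under all 20 alternatives at each point. Slc6a9, a glycine transporter, fell at point 5 by 0.98 ± 0.23 (0.00606), a call lost in the fit of 6 libraries (0.0924) and without PBS replicate 3 at every point (0.0577). Of 13 cytosolic aminoacyl-tRNA synthetases, which charge tRNAs with amino acids, Eprs rose at points 3, 4 and 5 by 1.21, 0.62 and 0.85 (± 0.16, adjusted p = 3.42e-05, 0.0125 and 0.000992) and Vars fell at point 5 by 0.71 ± 0.16 (0.00486). The other 11 passed at no point with the values as deposited, and the list medians at points 3, 4 and 5 were -0.11, -0.04 and -0.11. Under median-ratio scaling and under quantile normalization 2 synthetases rose at point 5. The call of Eprs at point 4 was lost without insulin replicate 2 (0.0997), and that of Vars was lost without insulin replicate 1 at every point (0.0504).

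Of 7 other genes known to respond to ATF4, 5 were tested. Ddit4, the mTORC1 inhibitor REDD1, rose at point 4 from 4.56 ± 1.25 to 26.2 ± 5.43 FPKM (2.29 ± 0.37, adjusted p = 0.000442) and at point 5 by 1.16 ± 0.37 (0.0304). At point 5 the Ddit4 call was lost without insulin replicate 3 (difference 0.63, adjusted p = 0.221) or PBS replicate 2 (0.102) or 3 (0.112), without insulin replicate 1 at every point (0.0524), without the filter (0.0779) and in the fit of 6 libraries (0.153). Eif4ebp1, which restrains cap-dependent translation, fell at points 3 and 5 by 0.69 and 0.60 (± 0.20, adjusted p = 0.0321 and 0.0362). Both of its calls were lost under median-ratio scaling (0.0672 and 0.122) and quantile normalization (0.0548 and 0.115). That at point 3 was also lost without insulin replicate 1 or 3 or PBS replicate 2 or 3 (0.0667 to 0.121), and that at point 5 without any 1 library (0.0519 to 0.128).

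The other arms of the ER stress response, those of ATF6 and XBP1, were measured with 18 genes. At point 3, 1 rose and 1 fell, at point 4, 1 rose and 2 fell, and at point 5, 1 rose. The list medians were -0.13, -0.14 and 0.03. Under median-ratio scaling the counts were 2 and 0, 3 and 2, and 3 and 0. Atf6 rose by 0.69 ± 0.12 at point 4 (adjusted p = 0.000886) and by 0.43 ± 0.12 at point 5 (0.0142). Xbp1 fell by 0.58 and 0.65 (± 0.15) at points 3 and 4 (0.0218 and 0.00925), though not at point 3 under median-ratio scaling (0.089) or quantile normalization (0.0933). The cochaperone gene Dnajb9 rose by 0.78 ± 0.24 at point 3 (0.0448), and Sdf2l1, an ER protein of the chaperone complex, fell by 1.07 ± 0.29 at point 4 (0.0205). Among these, the call of Atf6 at point 4 held without any 1 library but not in the fit of 6 libraries (0.0682). That of Atf6 at point 5 was lost without insulin replicate 2 or PBS replicate 1 or 3 (0.0519 to 0.0715). Those of Xbp1 were lost without insulin replicate 1 or 2 or PBS replicate 2 at point 3 (0.0509 to 0.103) and without insulin replicate 1 at point 4 (0.0656). That of Dnajb9 was lost without any library but insulin replicate 1 (0.0568 to 0.161), and that of Sdf2l1 without insulin replicate 1 or PBS replicate 1 or 2 (0.0647 to 0.0913).

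Around Sesn2, 12 genes of sestrins and the GATOR complexes were listed and 10 tested. With the values as deposited only Sesn1 passed, rising at point 5 from 3.23 ± 0.391 to 5.16 ± 1.17 FPKM (0.53 ± 0.14, adjusted p = 0.0129), and this was lost without insulin replicate 3 (0.0828) or PBS replicate 2 (0.0572). Under median-ratio scaling and under quantile normalization 2 genes of this list rose at point 5. Around Chac1, 7 genes of glutathione synthesis and turnover were listed and 6 tested. Under either scaling 1 gene of this list rose at point 4. With the values as deposited only Oplah passed, which recycles the cyclic product of glutathione breakdown. It fell by 0.63 ± 0.18 at point 4 (0.0226) and by 0.56 ± 0.18 at point 5 (0.0292). At point 4 its call was lost without insulin replicate 1 or 2 or PBS replicate 3 (0.0617 to 0.139), and that at point 5 without insulin replicate 1 or 3 or PBS replicate 2 or 3 (0.0562 to 0.147) and under median-ratio scaling (0.0814).

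**Figure D4:**
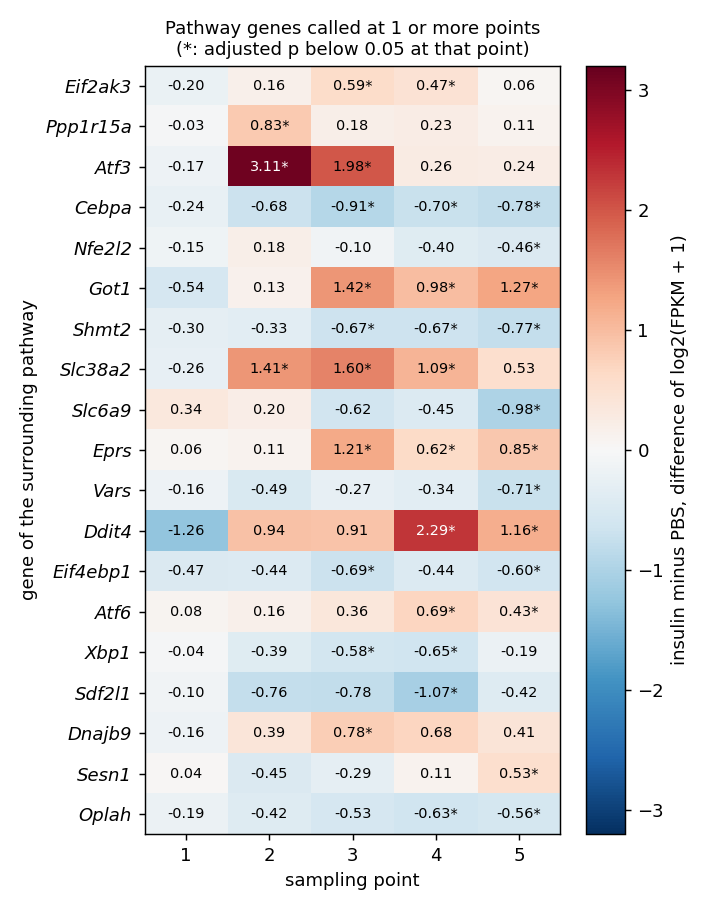
Difference of log2(FPKM + 1), insulin minus PBS, for the 19 genes of the surrounding lists that passed the test at 1 or more points (rows) at the 5 points (columns); red is higher and blue lower in insulin, each cell gives the value, and an asterisk marks an adjusted p below 0.05. Slc38a2 carries asterisks at points 2 to 4, Got1 and Eprs at points 3 to 5, and none of the genes has one at point 1.

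The 8 genes did not share a common pattern over the 30 libraries. Among their 28 pairs, Pearson's r of log2(FPKM + 1) ran from -0.48 for Atf4 and Trib3 to 0.72 for Atf5 and Trib3, with 0.53 for Chac1 and Sesn2. Atf4 and Ddit3 gave 0.33, and Atf4 and Asns -0.08. These values describe libraries that share treatment, point and depth and carry no test.

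The genes whose pattern was most like that of each member were named by the same measure, the 3 highest r over 30 libraries. For Trib3 they included Mlycd (0.92) and Tnfaip8l1 (0.90), the closest likeness of any member. For Atf4 they were Fam222a (0.86), Btbd19 (0.85) and Nfil3 (0.84), and for Atf5 Nsmaf, Lgals9 and Cluh (0.84 to 0.85). Trib1 was nearest to Junb (0.82), Dusp6 (0.74) and Socs3 (0.72), and Ddit3 to Bag3, Snx18 and Vgll4 (0.68 to 0.72). Asns was nearest to Fam169b, Oxnad1 and Fam126a (0.70 to 0.71), Chac1 to Zfp36l2, Txnip and 4732463B04Rik (0.72 to 0.75), and Sesn2 to Sephs2, Gm9826 and Plin3 (0.73 to 0.75).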

How the data were processed

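RNA was measured as gene-level FPKM in 30 poly(A) libraries from a directional kit, per the labels' protocols, and the authors deposited 1 table of these values. HISAT2 2.1.0, SAMtools 1.9, StringTie 2.0.3 and the GRCm38 (mm10) build are named in the submitters' processing notes; neither an annotation nor a strand setting is named there. Cells without a value (32.2%) were entered as 0, which can also stand for a failed estimate. Depth was estimated from the steps between low values. Only 39.6% to 49.1% of those came out whole to within 0.05 of a read, so reads were not recovered and no count test was run. All 13589 genes that reached 1 FPKM in 3 or more libraries entered a limma model (version 3.58.1, R 4.3.3) of log2(FPKM + 1), in which each of the 10 groups had its own mean and the prior variance followed the level (20 residual degrees of freedom). Tests were two-sided, with Benjamini-Hochberg adjustment over all genes tested and a threshold of 0.05. Differences on this scale understate changes of low genes.

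Treatment, replicate and point were read from the titles and the lane from the descriptions. Insulin libraries ran on lane 1 (6) and lane 2 (9), and PBS libraries on lanes 3, 4 and 5 (5 each). Libraries of a group correlated at 0.966 to 0.983 and shared at most 0.0174% of values, so none was treated as a repeat. Members and lists were chosen with earlier results of these data known. Besides the members, the named genes are those of each list with the lowest adjusted p-values among its calls, at most 4, and the 3 most correlated genes per member, of which 1 is not reported here. CT010467.1, the list calls without insulin replicate 1 at every point and the alternatives for comparisons within a treatment were chosen after values were seen. Slc7a3, Ggt1 and Ly6g had no row. Positions came from GENCODE M21 (29066 of 29117 IDs matched) and promoters from RefSeq. Alternatives covered the pseudocount (0.1), the filter (none, or a mean of 5 FPKM), scaling, a replicate block, series as a random effect, a fit of 6 libraries, and left-out libraries and series.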

Additional observations from a re-analysis of the deposited data

Results flagged for a closer look

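The difference of Atf4 between insulin and PBS was not the same at the 5 points by the F test of the difference itself (limma, adjusted p = 0.0415), a call lost without the filter on low values (0.0969) and without 5 of the 6 series of libraries (0.11 to 0.245). In log2 terms it measured -0.08, 0.74, 0.54, 0.15 and -0.30 from point 1 through point 5, each ± 0.16 (SE), with all 3 insulin libraries above the 3 PBS libraries at points 2 and 3 and all 3 below them at point 5, where the difference itself did not pass (adjusted p = 0.192). Under median-ratio scaling and quantile normalization the difference at point 5 was -0.085 and -0.14 (adjusted p = 0.739 and 0.549).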

How the results depend on the processing

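No call of a member changed direction. The Trib3 calls at points 2, 3 and 4 held under 17, 19 and 17 of 19 alternatives, those of Atf4 at points 2 and 3 under 13 and 8 of 20, that of Trib1 at point 3 under 6 of 20 and that of Sesn2 at point 3 under 5 of 19. A filter at a mean of 5 FPKM removes all members but Atf4, Atf5 and Trib1. The cause of the other changes was not tested.

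Members called at point 2 numbered 1 with the filter at 5 FPKM and in the fit of 6 libraries. At point 3 they were 1 without a filter and 2 with the filter at 5 FPKM, median-ratio scaling or quantile normalization. At point 4 they were 0, and at point 5 1, with the filter at 5 FPKM, and 0 at point 4 in the fit of 6 libraries. For the dependence on the point, the count was 0 members and 145 genes without a filter. For the insulin arm it was 2 members and 975 genes with the filter at 5 FPKM. From point 1 to point 2 in insulin, 2 members were called under either scaling and with the series as a random effect. All genes called at point 1 were 3 with a pseudocount of 0.1 or no filter, 2 and 4 under median-ratio scaling and quantile normalization, and 0 in the fit of 6 libraries. That fit called 62, 101 and 1115 genes at points 2, 4 and 5. Without a filter 810 were called at point 3.

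Replicate numbers did not pair the libraries: deviations of same-numbered insulin and PBS libraries correlated at -0.11 to 0.12 over 15 pairs, 1 of them over 0.1. With the replicate block, 5, 450 and 1957 genes were called at points 1, 2 and 3, members called at point 5 were 1 (Atf5, adjusted p = 0.0277), and from point 1 to 2 in insulin 2. Ddit3 was then called as varying among the insulin points (0.0345).

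With 1 library or series left out, members called ranged from 0 to 0, 0 to 2, 1 to 3, 0 to 1 and 0 to 2 at points 1 to 5, and genes called from 0 to 95, 64 to 591, 474 to 951, 507 to 2396 and 1107 to 2545. Between neighbouring points in insulin, members called ranged from 1 to 2, 0 to 1, 0 to 1 and 0 to 0, and in PBS from 0 to 0. For the dependence on the point the ranges were 0 to 1 members and 70 to 122 genes, for the insulin arm 1 to 3 and 876 to 1021, and for the PBS arm 0 to 0 and 128 to 199.

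The differences that changed sign were uncalled. At point 1 Atf4 was at 0.014 under quantile normalization and at -0.17 to 0.074 with 1 library or series left out, Atf5 at -0.48 to 0.11, and Chac1 at -0.15 to 0.36 and at -0.021 with a pseudocount of 0.1. With 1 library or series left out, Ddit3 ranged from -0.051 to 0.26 at point 2 and from -0.049 to 0.22 at point 3, Sesn2 from -0.14 to 0.41 at point 4 and from -0.13 to 0.095 at point 5, and Chac1 from -0.064 to 0.35 at point 5. Sesn2 at point 5 was at 0.16 and 0.18 under median-ratio scaling and quantile normalization.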
